A study of Mus with 12 samples.

Results

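The stefin A cluster is a row of related genes on mouse chromosome 16, and 7 of its genes were followed in blood here: Stfa2l1, Cstdc4, Stfa1, Cstdc6, Cstdc5, Stfa2 and Stfa3. They are 7 of the 25247 genes in the expression table, found by their symbols. They were selected on these same data, because Stfa3, Cstdc6 and Stfa2 were already known to be much higher in DNCB blood than in Solvent, scMSC or scivMSC blood, and all 7 stand in a list that the study drew from the DNCB and MSC groups. Their differences between DNCB and the other 3 groups are therefore given as a description, with no p-value.

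Stefins are small proteins of the cystatin family that block cysteine proteases of the papain type, such as cathepsins B, L, H and S. Unlike secreted cystatins they lack a signal peptide and stay mainly inside the cell, where they can limit the damage done by cathepsins that leak from lysosomes. Humans have a single stefin A gene, CSTA, known from skin as a component of the cornified envelope. In mice the gene has been copied into a cluster, and several of the copies are known as transcripts of neutrophils and their bone marrow precursors. All 7 genes carry the annotation term for inhibitors of cysteine endopeptidases in the deposited table.

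Blood RNA was sequenced from BALB/c mice, female and 6 weeks old at purchase, in 4 groups of 3 libraries. Solvent mice received only the acetone and olive oil vehicle on the shaved back and right ear. DNCB mice were sensitised there with 1% 2,4-dinitrochlorobenzene, a hapten that provokes contact allergy and serves in this study as a model of atopic dermatitis, and were challenged repeatedly with 0.5%. Mice of both MSC groups received the same DNCB course plus human umbilical cord mesenchymal stem cells at 2000000 cells per dose. The scMSC mice received each dose as 100 µL under the skin beside the lesion, and the scivMSC mice as 50 µL under the skin and 50 µL into the tail vein. Blood was taken on day 30. No group received MSC without DNCB, and none received the culture solution alone. The sources do not state whether a library came from a single mouse or from a pool, so every p-value below measures the spread between these libraries only.

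The libraries held 52179764 to 65139421 counts, and 91.3% to 95.6% of all FPKM (fragments per kilobase of transcript, scaled to the size of the library) belonged to haemoglobin genes. Mature neutrophil markers, monocyte markers and lymphocyte markers were all present, as blood should have them, while 3 keratinocyte genes of the marker list summed to at most 0.256 FPKM in any library. Testing covered the 5527 genes that reached 1 FPKM in 3 or more libraries. Of the 7 cluster genes, 6 passed. The exception was Stfa1, which reached 1 FPKM in 1 library. Stfa3 passed through its 3 DNCB libraries alone, and Cstdc4 and Cstdc6 through those and 2 scMSC libraries, so these genes could pass only by being high in DNCB.

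The 7 genes span 298.6 kb of chromosome 16. The table places Stfa2l1 (ENSMUSG00000059657) at chr16:36156811-36161953, Cstdc4 at chr16:36184212-36188111 and Stfa1 at chr16:36276951-36285373, all on the plus strand. Cstdc6 at chr16:36321665-36334332, Cstdc5 at chr16:36359382-36367748, Stfa2 (ENSMUSG00000022902) at chr16:36403992-36408457 and Stfa3 (ENSMUSG00000054905) at chr16:36450537-36455392 follow on the minus strand. The 3 genes of the plus strand thus face the 4 of the minus strand. The gaps between consecutive members run from 22.3 kb to 88.8 kb, the widest being the one before Stfa1. All 7 matched the RefSeq table of GRCm38.p6 by symbol, 5 with the same start, and 87.2% of 21469 genes matched across the genome started within 1000 bp of their RefSeq position. The submitters' notes name another build, mm8. Because the genes are close copies of each other, reads may have been divided among them in ways these files cannot show, and each gene's own value carries that uncertainty.

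**Figure D1:**
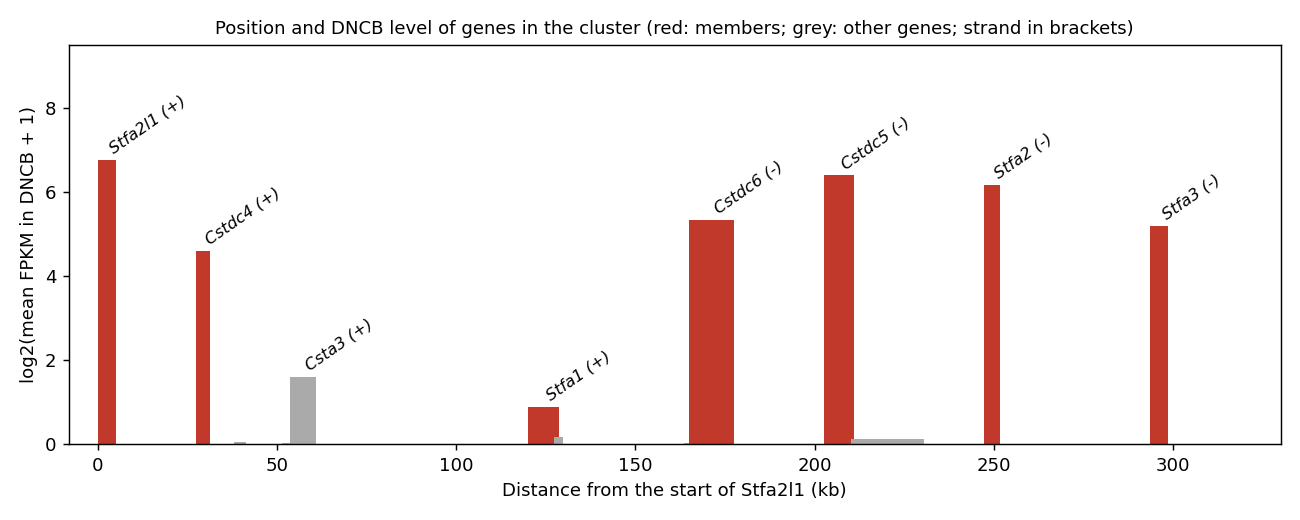
Genes of the stefin A cluster by distance in kb from the start of Stfa2l1 (horizontal axis) and by log2(mean FPKM + 1) in the 3 DNCB libraries (vertical axis), with members in red and other annotated genes between them in grey. Members of either strand reached more than 20 FPKM, from Stfa2l1 at 107 FPKM to Cstdc4 at 23.3 FPKM, while Stfa1 stood at 0.853 FPKM and Csta3, which is no member, at 2.04 FPKM.

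In DNCB blood the cluster became a substantial set of transcripts. The 7 genes together had 6.78, 8.69 and 2.94 FPKM in the Solvent libraries and 286, 472 and 323 FPKM in the DNCB libraries. The scMSC libraries had 22.2, 11.6 and 18.8 FPKM, and the scivMSC libraries 13.6, 7.51 and 13.0 FPKM. The means were 6.13 ± 2.93, 360 ± 98.7, 17.5 ± 5.42 and 11.4 ± 3.36 FPKM (SD, n = 3 each), so the DNCB mean was 58.7 times the Solvent mean, and the scMSC and scivMSC means were 4.87% and 3.16% of the DNCB mean. Every DNCB library stood far above all 9 others. Among the other 3 groups, both MSC groups had higher means than Solvent, by 2.86-fold for scMSC and 1.85-fold for scivMSC, and scMSC overlapped neither Solvent nor DNCB, while scivMSC overlapped Solvent and scMSC.

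Within DNCB blood the members kept a fixed order. Mean FPKM, which corrects for transcript length and so allows levels to be set side by side, was highest for Stfa2l1 and fell through Cstdc5, Stfa2, Cstdc6, Stfa3 and Cstdc4 to Stfa1. Each gene was above the next in 3 of 3 DNCB libraries. Over libraries, however, the ranges of most neighbours in that order overlapped. Ranges were apart only between Stfa2 and Cstdc6 and between Cstdc4 and Stfa1.

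Stfa2l1, one of the stefin A copies, was the most abundant member in every group. It had 4.66, 5.83 and 1.83 FPKM in Solvent, 81.4, 145 and 94.9 FPKM in DNCB, 14.4, 7.13 and 11.8 FPKM in scMSC, and 6.70, 4.11 and 6.00 FPKM in scivMSC. It was the only member with at least 1 FPKM in all 12 libraries, and its scMSC values lay above its Solvent and scivMSC values without overlap. The log2 fold change of DNCB over Solvent was 4.70 (SE 0.476), the smallest rise among the 6 members that were fitted. Its level then differed by −3.28 (SE 0.444) in scMSC and −4.26 (SE 0.466) in scivMSC against DNCB, also the smallest falls.

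Cstdc5, a cystatin-domain gene of the minus strand, came next with 63.4, 105 and 81.2 FPKM in DNCB. Its values were 0.922, 1.30 and 0.510 FPKM in Solvent, 3.07, 2.08 and 2.88 FPKM in scMSC, and 3.81, 1.06 and 2.73 FPKM in scivMSC. The scMSC libraries all lay above Solvent, whereas the scivMSC libraries spread widely and their lowest lay inside the Solvent range. On the log2 scale DNCB exceeded Solvent by 6.47 (SE 0.529), and scMSC and scivMSC differed from DNCB by −4.96 (SE 0.490) and −5.03 (SE 0.492). A predicted antisense gene, Gm15845, overlaps Cstdc5. Whether counting used strand is not given in the sources used here, so reads of both cannot be told apart, and Gm15845 was listed at a mean of 0.0847 FPKM in DNCB.

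Stfa2 encodes one of the classical mouse stefins. Its DNCB values were 61.3, 89.6 and 62.1 FPKM, against 0.587, 0.840 and 0.342 FPKM in Solvent. It had 1.88, 1.75 and 1.14 FPKM in scMSC and 1.95, 2.22 and 2.21 FPKM in scivMSC, which is the one member whose scivMSC values all lay above its scMSC values. All MSC libraries lay above all Solvent libraries. The log2 fold change was 6.87 (SE 0.451) for DNCB over Solvent, −5.48 (SE 0.418) for scMSC and −5.05 (SE 0.409) for scivMSC against DNCB.

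Cstdc6, its cystatin-domain neighbour beyond Cstdc5, had 33.9, 49.4 and 34.8 FPKM in DNCB. In Solvent it had 0.252 FPKM in replicate 1 and was listed at 0 in the other libraries. In scMSC it had 1.51, 0 and 1.81 FPKM, and in scivMSC 0.469, 0 and 0.828 FPKM, so replicate 2 of each MSC group was listed at 0. Taking about 4 counts as 1 fragment, the Solvent group held 2 fragments of Cstdc6, and DNCB exceeded it by a ratio of 384, with an exact 95% interval of 106 to 3176 that covers counting error only. Against DNCB the fitted log2 differences were −5.13 (SE 1.07) in scMSC and −6.43 (SE 1.16) in scivMSC.

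Stfa3, another classical stefin, was close to an on-off readout. It had 29.1, 46.7 and 30.3 FPKM in DNCB (739, 1223 and 788 counts) and 0 counts in all Solvent libraries. In scMSC it had 4, 4 and 0 counts, and in scivMSC 0, 0 and 8 counts, equal to at most 0.320 FPKM. With 3 fragments per library as the limit that a count of 0 allows, DNCB was at least 81.5-fold higher than Solvent. The ratio of DNCB to scMSC was 328 (exact 95% interval 90.5 to 2715) and that of DNCB to scivMSC was 313 (exact 95% interval 86.2 to 2586). The bound allows 3 fragments in every library and the ratios use the fragments seen in the whole group, so the bound and the ratios do not rank the groups. Solvent, scMSC and scivMSC were all at or under this floor for Stfa3, so no fold is given among them.

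Cstdc4 has 2 annotated transcripts, 1 of them a retained intron, and the longest effective length of the 7 at 1983 bp, which makes its FPKM low for its counts. It had 16.4, 34.2 and 19.2 FPKM in DNCB, with 1887, 4045 and 2254 counts. The other groups had 0.358, 0.706 and 0.250 FPKM (Solvent), 1.22, 0.510 and 1.20 FPKM (scMSC) and 0.678, 0.121 and 0.914 FPKM (scivMSC), and these 3 groups overlapped one another. Its log2 fold change was 5.71 (SE 0.668) for DNCB over Solvent, −4.57 (SE 0.630) for scMSC and −5.33 (SE 0.656) for scivMSC against DNCB.

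Stfa1 was seen only in the DNCB libraries. Its counts there were 17, 87 and 14, or 0.348, 1.92 and 0.292 FPKM, and all 9 other libraries had 0 counts. DNCB was at least 3.49-fold higher than Solvent, at least 3.10-fold higher than scMSC and at least 2.96-fold higher than scivMSC. These limits are loose because Stfa1 had few counts even in DNCB, and the mean there rested largely on replicate 2.

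**Figure D2:**
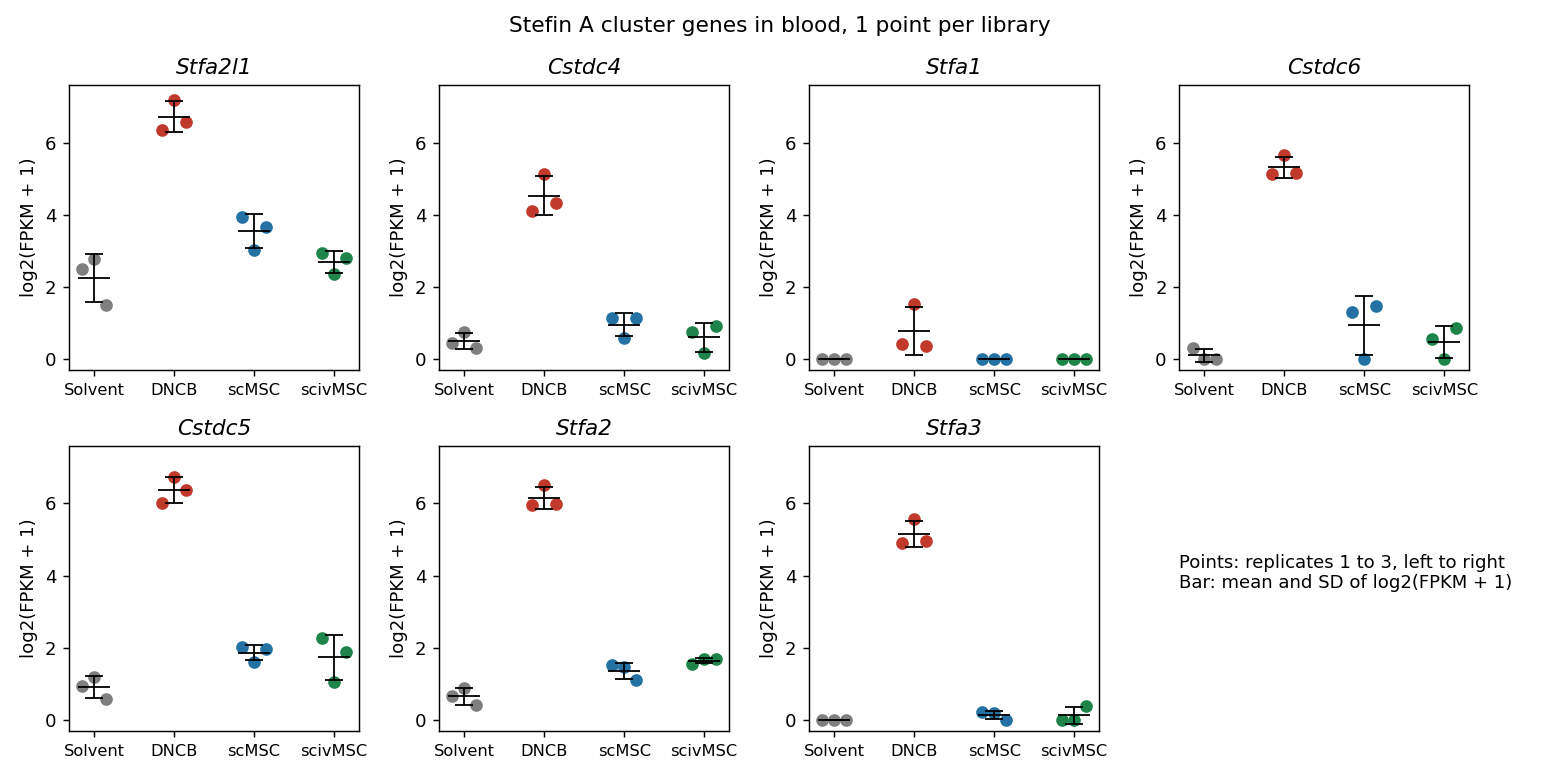
Each panel shows 1 cluster gene, with log2(FPKM + 1) on the vertical axis and the 4 groups on the horizontal axis, replicates 1 to 3 from left to right, and the mean and SD of the log values as bars. The DNCB points lie above all others in every panel, replicate 2 of DNCB is the highest in each, and Stfa3 and Stfa1 sit at or near 0 elsewhere.

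Replicate 2 of DNCB was the highest library for all 7 members. It exceeded the mean of the other DNCB libraries by 1.44-fold (Cstdc6) to 1.92-fold (Cstdc4) in the 6 members that passed, and by 6.00-fold in Stfa1. Mature neutrophil markers moved alongside, at 1.56-fold in summed FPKM, next to 1.55-fold for the 7 members summed, and neutrophil precursor markers were 1.60-fold higher. All genes but haemoglobin summed to 1.21-fold. Without this library Stfa3 fell under the filter, and the median log2 fold change of the 5 members still fitted in DNCB over Solvent was 6.26, against 6.47 for the same 5 with all libraries.

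Counted as genes, the members lay where their selection put them, and the counts are given only as a description. In DNCB against Solvent the 6 fitted members lay past the limits applied to every gene, an adjusted p under 0.05 and a fold change over 2 by edgeR, beside 15.6% of tested genes called higher and 4.87% called lower. The groups did not overlap for these 6, and 25.0% of all tested genes were likewise higher without overlap. In scMSC against DNCB the 6 lay past these limits downwards, where 24.9% of tested genes were called lower and 1.27% higher, and 49.8% were lower without overlap. In scivMSC against DNCB they did so too, where 62.0% were called lower, 1.43% higher, and 67.9% lower without overlap. Since these comparisons chose the members, nothing is read from the counts.

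The median log2 fold change of the 6 members was 6.67, −5.05 and −5.19 in these 3 comparisons. With the genes at the floor set to their bounds the first became 6.38 and the others were the same. The median over all tested genes was 0.06, −0.63 and −1.53 on this scale of library totals, so the median gene was lower in the MSC groups relative to the library totals, which haemoglobin dominates. Under TMM scaling, which centres the bulk of genes, the all-gene medians were −0.09, 0.06 and 0.04, and the members' medians were 6.49, −4.39 and −3.64. Measured from the all-gene median the members differed by 6.61, −4.41 and −3.66 under library totals and by 6.58, −4.44 and −3.68 under TMM. Both scalings use the same counts and differ by a factor per library, which moves all genes nearly alike. The near-equal distances from the all-gene median follow from this and are no separate result. The members' own median in scivMSC against DNCB did depend on the scaling.

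**Figure D3:**
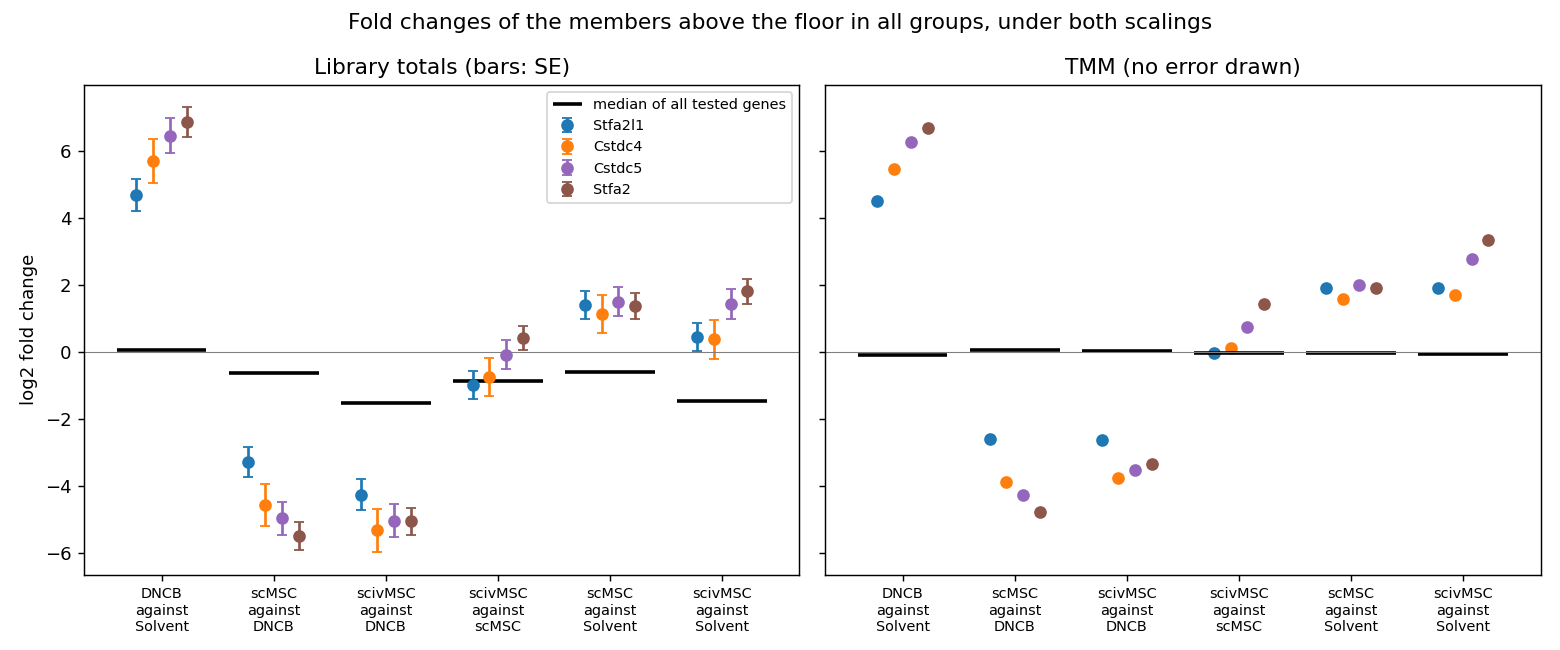
The log2 fold changes (vertical axis) of the 4 members above the floor in every group, in 6 comparisons (horizontal axis), under library totals with SE bars and under TMM without error bars, with black lines at the median of all tested genes. Stfa2l1 has the smallest and Stfa2 the largest rise of these 4 in DNCB over Solvent, and the all-gene median lies at −1.53 in scivMSC against DNCB under library totals and at 0.04 under TMM.

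The other 3 comparisons were not used to choose the members and were tested, although they share their libraries with those that were. The first was whether the cluster returned to the Solvent level after MSC under the skin. For scMSC and Solvent, 0 of the 5 members above the floor passed by edgeR (adjusted p 0.0925 to 0.194), with 4 of 5 at an unadjusted p under 0.05, while DESeq2 called 4 and limma on log2(FPKM + 1) called 1. DESeq2 scaled the libraries by its own size factors and not by library totals. Its calls here and below thus differ from those of edgeR in scaling as well as in tool. By comparison, 0.326% of tested genes were called higher and 0.326% lower by edgeR, while 8.16% were called higher by DESeq2 and 0.778% by limma. All 5 had higher means in scMSC, with log2 fold changes of 1.42 (SE 0.421) for Stfa2l1, 1.51 (SE 0.442) for Cstdc5, 1.39 (SE 0.386) for Stfa2 and 1.14 (SE 0.571) for Cstdc4. Cstdc6 had 19 fragments against 2, a ratio of 10.6 with an exact 95% interval of 2.57 to 94.3 for counting error. Stfa2l1, Cstdc5 and Stfa2 did not overlap with Solvent, which 7.0% of tested genes did upwards and 40.6% downwards. Under TMM 4 of the 5 passed, Stfa2l1, Cstdc6, Cstdc5 and Stfa2 (adjusted p 0.00197 to 0.0375 by edgeR), beside 7.29% of tested genes called higher under that scaling. Without replicate 2 of scivMSC, which takes part only through the shared estimate of spread, the same count of 4 passed under library totals.

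After MSC under the skin and into the vein, 2 of the 5 members were called higher than in Solvent, where 2.59% of tested genes were called higher and 59.2% lower. Stfa2 was higher in scivMSC, with means of 0.590 and 2.13 FPKM and a log2 difference of 1.81 (SE 0.386, adjusted p = 0.000923 by edgeR). It was the only fitted member whose groups did not overlap, as 6.1% of tested genes did upwards and 62.6% downwards. Cstdc5 rose by 1.44 (SE 0.442, adjusted p = 0.00953 by edgeR), from 0.913 to 2.53 FPKM, with overlapping groups. Stfa2l1 differed by 0.44 (adjusted p = 0.359), Cstdc4 by 0.38 (adjusted p = 0.565) and Cstdc6 by 2.26 (adjusted p = 0.136), each by edgeR and none past the threshold. Under TMM all 5 passed, where 22.4% of tested genes were called higher. DESeq2 called 4 of 5, beside 23.4% of tested genes, and limma on log2(FPKM + 1) 0 of 5, beside 1.18%. The fitted value of Stfa3 passed as well (adjusted p = 0.0429 by edgeR), but it rests on 8 counts in 1 library against 0 and is not counted.

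The injection routes were set against each other directly in scivMSC against scMSC. Of the 5 members above the floor 0 passed by edgeR (adjusted p 0.0789 to 0.906), and 1 of 5, Stfa2l1, had an unadjusted p under 0.05, while DESeq2 called 1 (Stfa2) and limma 0. In this comparison 30.4% of tested genes were called lower and 0.344% higher by edgeR, while DESeq2 called 14.7% higher and limma 0.181%. Stfa2l1 had a log2 fold change of −0.98 (SE 0.417) and lay lower in all scivMSC libraries, as 46.7% of tested genes did. Stfa2 had 0.43 (SE 0.364) and lay higher in all of them, as 3.82% of tested genes did. The values were −0.07 (SE 0.426) for Cstdc5, −0.76 (SE 0.567) for Cstdc4 and −1.30 (SE 1.04) for Cstdc6. The all-gene median here was −0.87 under library totals. Under TMM, which called 13.1% of tested genes higher, Stfa2 passed with a log2 fold change of 1.43 (adjusted p = 0.0103 by edgeR), while Stfa2l1 was at −0.02, Cstdc5 at 0.75 and Cstdc4 at 0.12, so the directions of Cstdc5 and Cstdc4 flip with the scaling.

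The make-up of the cluster also differed between groups. Stfa2l1 made up 66.1% ± 3.28 of the summed cluster FPKM in Solvent but 29.6% ± 1.17 in DNCB, 62.9% ± 1.70 in scMSC and 50.0% ± 4.31 in scivMSC (SD, n = 3 each). The share of Stfa2 was 9.99% ± 1.52, 19.9% ± 1.35, 9.87% ± 4.67 and 20.3% ± 8.16 in the same order, and that of Cstdc5 was 15.3% ± 1.91, 23.2% ± 1.71, 15.7% ± 2.06 and 21.0% ± 6.95. Stfa3 made up 9.82% ± 0.396 of the cluster in DNCB and at most 2.46% in any other library, and Cstdc6 11.0% ± 0.734 in DNCB and 0% to 9.62% elsewhere. Cstdc4 ranged from 4.54% to 7.31% by group mean and from 1.61% to 8.52% over single libraries. By FPKM, Stfa2l1 thus made up most of the cluster in Solvent and scMSC blood, while DNCB blood carried a more even mixture. Stfa3, Cstdc6 and Stfa2 were known to be high in DNCB when the members were chosen, which favours larger shares for them there. The shares are therefore given as a description only. The share of Stfa2l1 in scivMSC, 46.2% to 54.7%, overlapped neither the 61.4% to 64.7% of scMSC nor the 62.5% to 68.8% of Solvent, and with 3 against 3 an exact two-sided permutation test cannot give a p below 0.1. By counts instead of FPKM, which does not correct for length, Stfa2l1 was 47.0% in Solvent, 20.5% in DNCB and 46.9% in scMSC.

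**Figure D4:**
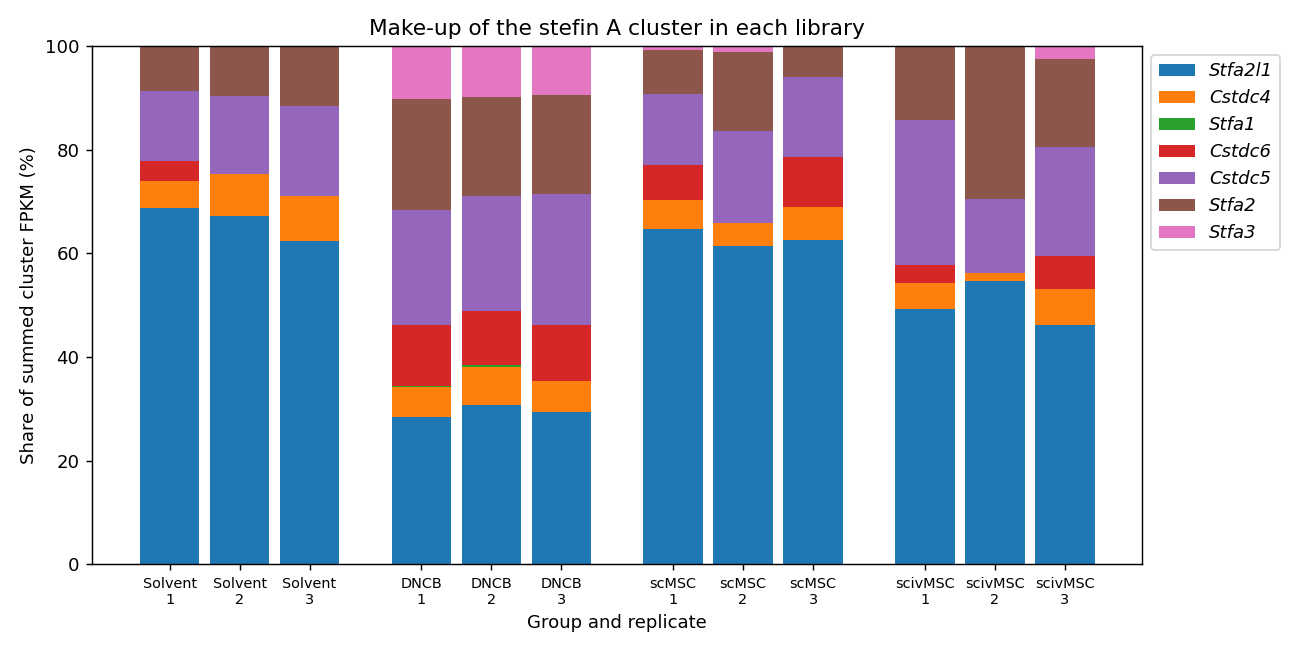
Stacked bars give each member's share of the summed cluster FPKM (vertical axis, 0 to 100%) in each of the 12 libraries (horizontal axis). Stfa2l1 takes 62.5% to 68.8% in Solvent and 28.5% to 30.8% in DNCB, and Stfa3 is a visible band in all DNCB libraries, at 9.39% to 10.2%. The choice of the members favours such a difference.

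Neutrophil markers moved with the cluster. In bulk blood, fewer cells of a type and less RNA per cell cannot be told apart. All 10 mature neutrophil markers tested were called higher in DNCB than in Solvent and lower in both MSC groups than in DNCB. Of all tested genes 15.6% were called higher in DNCB than in Solvent. Against DNCB 24.9% were called lower in scMSC and 62.0% in scivMSC. The summed FPKM of the 10 markers ranged over 215 to 440 in Solvent, 6497 to 10254 in DNCB, 530 to 681 in scMSC and 206 to 631 in scivMSC. The mean of that sum in DNCB was 22.5 times the Solvent mean, beside 58.7 times for the cluster. S100a8 and S100a9 made up 80.1% to 84.6% of the sum by group, and single markers ranged from 8.98-fold for Csf3r, the receptor of a neutrophil growth factor, to 78.0-fold for Ly6g, the 1 marker of the 10 above the fold of the cluster. As group means, Ly6g, the surface antigen that defines mouse neutrophils, was at 0.680, 53.0, 2.59 and 2.67 FPKM (in the order Solvent, DNCB, scMSC, scivMSC). As a share of the mature marker sum, the cluster stood at 1.37% to 1.97% in Solvent, 4.40% to 4.83% in DNCB, 2.19% to 3.26% in scMSC and 2.16% to 3.64% in scivMSC. The DNCB libraries were above all others in this ratio too, and Solvent was below both MSC groups. The members were chosen for being high in DNCB, which favours a high ratio and a high fold there. Both are therefore given as a description only. With S100a8 and S100a9 left out of the markers, a choice made after the data were seen, the ratio was 7.13% to 12.8% in Solvent, 28.4% to 29.7% in DNCB, 9.96% to 17.2% in scMSC and 14.8% to 26.4% in scivMSC, where Solvent and scMSC overlap. How far the cluster and the markers differ in fold was not tested.

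Markers of neutrophil precursors and their granules were higher in DNCB blood as well. Of 9 listed, 5 were tested (Ltf, Camp, Ngp, Chil3 and Lcn2), and all 5 were called higher in DNCB than in Solvent and lower in both MSC groups than in DNCB. The shares of all tested genes called in these directions were 15.6% (DNCB over Solvent), 24.9% (scMSC) and 62.0% (scivMSC). Mpo, Elane, Prtn3 and Ctsg, the markers of the earliest stage, were near 0, at group means of at most 0.679 FPKM. The summed list had 7.66 to 10.6 FPKM in Solvent, 589 to 998 FPKM in DNCB, 56.0 to 76.7 FPKM in scMSC and 51.1 to 138 FPKM in scivMSC, with means 80.7 times higher in DNCB than in Solvent. In scMSC 4 of these 5 genes, and in scivMSC all 5, were called higher than in Solvent. Of the 5 cluster genes above the floor 0 and 2 were, but under TMM 4 and 5 of these were called beside 5 and 5 precursor markers. Of the 10 mature markers 3 were called higher than in Solvent in scMSC, and 3 higher and 1 lower in scivMSC. Under TMM 10 and 7 mature markers were called higher. Of all tested genes 0.326% and 2.59% were called higher than in Solvent in scMSC and scivMSC under library totals. Under TMM these shares were 7.29% and 22.4%. The differences between the lists were not tested. Relative to the precursor list the cluster was at 30.7% to 88.5% in Solvent, 43.3% to 54.8% in DNCB, 18.3% to 39.7% in scMSC and 9.89% to 17.1% in scivMSC. The scivMSC libraries were the lowest by this measure. The part that neutrophil number or maturity had in the members' levels was not tested.

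**Figure D5:**
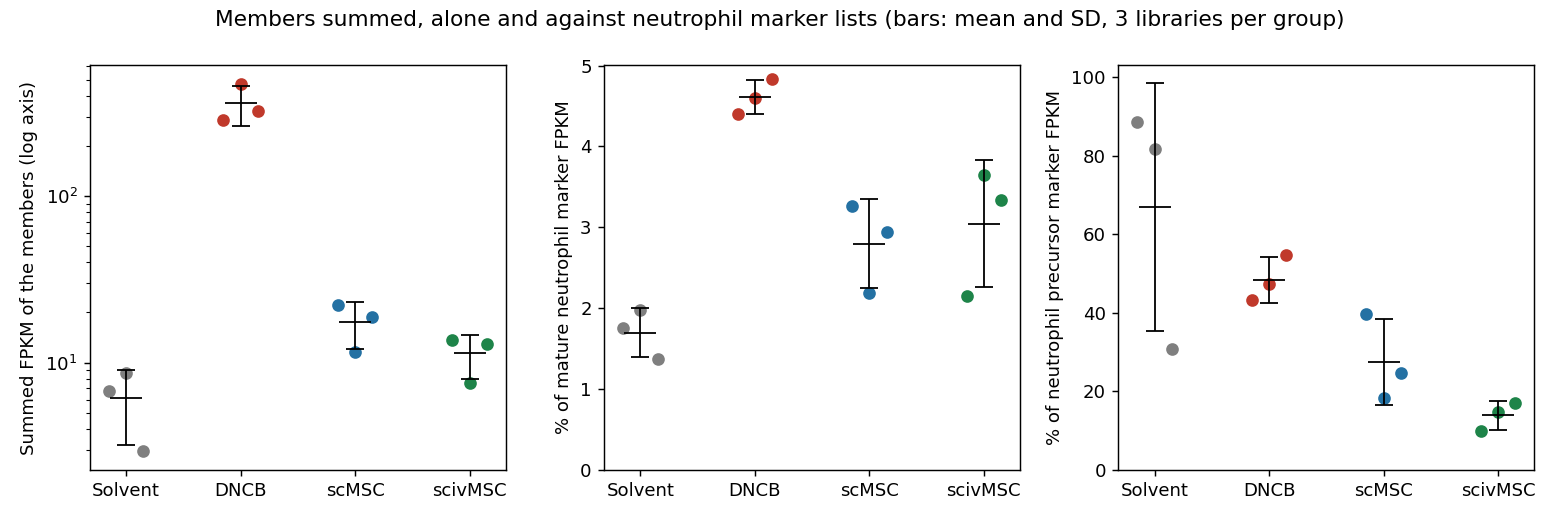
Summed FPKM of the 7 members (left, log axis) and the same sum as a percentage of mature neutrophil marker FPKM (middle) and of neutrophil precursor marker FPKM (right), with 1 point per library and the mean and SD as bars. Against mature markers the DNCB libraries (4.40% to 4.83%) lie above all others, which the choice of the members favours. Against precursor markers the scivMSC libraries (9.89% to 17.1%) are the lowest.

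Markers of other blood cells varied in direction. Of 5 monocyte markers tested, 3 were called higher in DNCB than in Solvent, where 15.6% of tested genes were called higher and 4.87% lower. Against DNCB, 4 were called lower in scMSC and 5 in scivMSC, where 24.9% and 62.0% of tested genes were. Under TMM 4 and 2 were called lower, where 681 and 1043 of all 5527 tested genes were. The summed monocyte list ranged from 57.1 to 177 FPKM in Solvent, 404 to 650 FPKM in DNCB, 78.7 to 89.1 FPKM in scMSC and 72.9 to 105 FPKM in scivMSC. Lymphocyte markers went the opposite way to the cluster in DNCB against Solvent. There 7 of 8 T cell, 6 of 6 B cell and 2 of 4 NK cell markers were called lower, counts that became 4, 3 and 0 without replicate 1 of Solvent (with 5 B cell markers fitted) and 3, 4 and 0 without replicate 3 of DNCB. The 3 monocyte markers called higher became 1 without replicate 3 of Solvent or replicate 2 of DNCB. Of 3 eosinophil and basophil markers 1 was called higher, as were 4 of 7 platelet markers, and of 6 erythroid markers 0 were called in any comparison by edgeR under library totals (0 to 2 with an unadjusted p under 0.05). Under TMM, 6 of 6 erythroid markers were called higher in scivMSC than in DNCB, where 1137 of all 5527 tested genes were.

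The genes most like the cluster over the 12 libraries included S100a8, S100a9 and Retnlg of the mature neutrophil list. Likeness was the Pearson correlation of log2(FPKM + 1) with the summed members, a description in which the DNCB libraries form a separate cluster of points and all genes share each library's total. Members and genes with a predicted-gene name (Gm and digits, or an ending in Rik) were left out of the ranking. Of the other tested genes the 10 highest were S100a8, Retnlg, Ltb4r1, Anxa1, Slpi, Alox5ap, Trem1, Lrg1, S100a9 and Wfdc21, with r from 0.993 for S100a8 to 0.986 for Wfdc21 (n = 12). Over the 9 libraries without DNCB the same genes had r of 0.808 to 0.912. S100a8 and S100a9 encode the subunits of calprotectin, Ltb4r1 a receptor for the chemoattractant leukotriene B4, and Slpi an inhibitor of neutrophil serine proteases. Between each member and the sum of the other members, r was 0.963 to 0.989 for the 6 that passed the filter and 0.789 for Stfa1. Without DNCB it was 0.867 for Cstdc5, 0.856 for Stfa2l1, 0.823 for Cstdc4 and 0.752 for Cstdc6, but 0.555 for Stfa2 and 0.409 for Stfa3, whose counts there were few.

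Among the cysteine cathepsins, the protease family that stefins inhibit, none was called higher in DNCB blood with all libraries fitted. The list of 11 genes also holds legumain (Lgmn), which is no cathepsin but is part of the counts below. Of the 11, 8 were tested. In DNCB against Solvent 0 were called higher and 1 lower by edgeR, where 15.6% and 4.87% of tested genes were. An unadjusted p under 0.05 was reached by 2, and DESeq2 and limma called 0 higher. The gene called lower was Ctsw, a cathepsin of T and NK cells, at −1.33 (adjusted p = 0.0221 by edgeR), a call lost without replicate 1 of Solvent, replicate 1 of DNCB or replicate 3 of DNCB. Without replicate 1 of Solvent, 1 gene of the list was called higher instead. Ctsb, the most abundant with 26.0 FPKM in Solvent and 33.3 FPKM in DNCB, had a log2 fold change of 0.36 and Ctsz one of 0.71, neither past the threshold. Ctss, the cathepsin of antigen-presenting cells, stood at 17.4 ± 7.45 and 17.3 ± 5.26 FPKM in Solvent and DNCB, and was lower than in DNCB by edgeR in scMSC (log2 −1.50, adjusted p = 0.0124) and in scivMSC (log2 −3.51, adjusted p = 1.1e-05). Lgmn and Ctsf differed by −0.07 and 0.03 in DNCB against Solvent. In the list, 3 of 8 were called lower in scMSC and 4 of 8 in scivMSC than in DNCB, where 24.9% and 62.0% of tested genes were, and the 3 became 0 without replicate 2 of DNCB, replicate 2 of scMSC or replicate 3 of scMSC. In scivMSC 2 of 8 were called lower than in scMSC and 4 of 8 lower than in Solvent, where 30.4% and 59.2% of tested genes were, and 0 were called in scMSC against Solvent. Under TMM 2 were called higher and 1 lower in scMSC against DNCB, 4 higher and 1 lower in scivMSC against DNCB, and 4 higher and 1 lower between the injection routes. Set against Solvent under TMM, scMSC had 0 called and scivMSC 4 higher and 2 lower. The calls thus depend on the scaling, although the sign itself differed between both scalings for at most 2 of the 8 genes in any comparison. Against DNCB, Ctss, Ctsc and Ctsh had negative values under both.

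Other cystatins were mostly at low levels in blood. Of 20 listed, 10 were in the table and 4 were tested (Cst3, Cstb, Cst7 and Csta3). In DNCB against Solvent 0 passed in either direction by edgeR, with 2 at an unadjusted p under 0.05, while DESeq2 and limma each called 1 higher. Cst3, which encodes cystatin C, the main secreted inhibitor, had 25.3, 40.0, 19.5 and 13.2 FPKM (group means, Solvent to scivMSC), with a log2 fold change of 0.66 in DNCB (adjusted p = 0.112 by edgeR). It fell by 1.05 in scMSC (adjusted p = 0.012) and by 1.61 in scivMSC (adjusted p = 0.000185) against DNCB under library totals, but under TMM the differences were −0.35 and 0.05. Cstb, the stefin B gene and sole member of its kind, had 3.10, 6.83, 2.43 and 1.04 FPKM, with 1.14 in DNCB (adjusted p = 0.245 by edgeR). In the list 1 gene was called lower in scMSC and 3 in scivMSC than in DNCB, where 24.9% and 62.0% of tested genes were. In the other comparisons 0 were called. Csta1 and Cst6 were listed at or near 0.

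Inhibitors of neutrophil serine proteases were among the genes that were higher in DNCB blood. Of 7 listed proteases and inhibitors 3 were tested, of which 2 were called higher in DNCB than in Solvent (1 without replicate 3 of Solvent or replicate 2 of DNCB) and lower in both MSC groups than in DNCB. The shares of all tested genes called in these directions were 15.6% (DNCB over Solvent), 24.9% (scMSC) and 62.0% (scivMSC). Slpi had 4.71 ± 1.80, 54.9 ± 14.5, 7.94 ± 1.01 and 4.96 ± 0.478 FPKM over the groups and was higher in DNCB by 3.54 (log2, adjusted p = 6.14e-06 by edgeR). Serpinb1a, an inhibitor of elastase and cathepsin G, rose by 1.52 (adjusted p = 0.0102 by edgeR). Serpinb6a was the third, at 0.35, and did not pass. Between scMSC and Solvent, and between the injection routes, 0 passed by edgeR (1 by DESeq2 in each). In scivMSC against Solvent Serpinb1a was called lower, at −1.33 (adjusted p = 0.00783 by edgeR), where TMM gave 0.26. Without replicate 1 of Solvent this call was lost and 1 of the 3 was called higher. TMM and DESeq2 each called 2 of the 3 higher and 0 lower, where they called 22.4% and 23.4% of tested genes higher.

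Genes in and around the cluster that are no members were examined in the same way. Csta3, a further stefin-like gene between Cstdc4 and Stfa1, had 0.286, 2.04, 0.771 and 0.129 FPKM over the groups. Its log2 fold change in DNCB against Solvent was 2.73 (adjusted p = 0.142 by edgeR), and it was lower in scivMSC than in DNCB at −3.82 (adjusted p = 0.0231 by edgeR) but at −2.21 under TMM (adjusted p = 0.203 by edgeR), which is no call. It shares the uncertainty of reads among similar genes. The other 5 annotated genes between the members, all with systematic names, had group means of at most 0.126 FPKM and were not tested. The 10 nearest tested genes on each side reached 2207 kb before the cluster and 8684 kb after it, so many of them are not close. Of these, 5 of 20 were called higher and 1 lower in DNCB against Solvent, with a median log2 fold change of 0.18. The 5 were Hcls1, Adprh, Atp6v1a, Cd200r1 and Slc35a5, at 480, 1989, 7630, 8310 and 8684 kb after the cluster. Of all tested genes 15.6% were called higher and 4.87% lower there. Among the nearest 3 on each side only Hcls1, a signalling adaptor of blood cells 480 kb after Stfa3, passed, at 1.55 (adjusted p = 0.00489 by edgeR). Fam162a, Kpna1 and Parp9 before the cluster had 0.28, −0.15 and 0.36, and Ndufb4 and Gsk3b after it 0.01 and 0.41. Against DNCB, 6 of the 20 were called lower in scMSC and 13 in scivMSC, where 24.9% and 62.0% of tested genes were. Their medians were −0.66 and −1.47, next to −0.63 and −1.53 for all tested genes. Under TMM 4 of the 20 were called lower and 3 higher in scMSC, and 6 lower and 3 higher in scivMSC. Of all 5527 tested genes TMM called 681 lower and 483 higher in scMSC, and 1043 lower and 1137 higher in scivMSC.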

How the data were processed

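Blood RNA was sequenced from 12 libraries in 4 groups of 3, grouped by their labels. RNA was extracted with TRIzol. The authors deposited 1 table with estimated counts and FPKM values per gene and library, the latter per kilobase and scaled to library size with haemoglobin included. The submitters' notes name HISAT2 2.0, StringTie 1.3.0, Bowtie 0.12.2 and mm8, with no roles. The annotation version and strand setting are not given in the sources used here. Gene names and coordinates are those of the table, checked against RefSeq GRCm38.p6.

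The deposited counts, taken as estimated counts (whole numbers), were tested with edgeR 4.0.16 in R 4.3.3 by the quasi-likelihood test, scaled by library totals of 52179764 to 65139421 counts, with all 12 libraries in 1 fit. Of values from 1 to 12 counts, 29.0% equalled 4, so a fragment was taken as about 4 counts and 12 counts per library (3 fragments) as the floor. Intervals are exact and 95%. Floors and intervals cover counting error only. Genes had to reach 1 FPKM in 3 or more libraries. Calls needed a Benjamini-Hochberg adjusted p under 0.05 over 5527 genes and a fold change over 2. Standard errors were computed as the fitted log2 change over the root of its F statistic. TMM, DESeq2 1.42.0, limma 3.58.1 on log2(FPKM + 1), other filters, counts divided by 4 and single libraries left out were alternatives, and the fits were tested on simulated data. DESeq2 used its own size factors and not the library totals. The members, lists and tests were chosen with earlier results of these data known. All 7 members were described. Up to 6 genes per pathway list were taken by mean FPKM, and the nearest 3 neighbours per side. The 10 most alike were taken by correlation among tested genes that are no members and have no predicted-gene name. Other genes are marker genes, or were named because they make up a small count. The labels give no batch.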

Additional observations from a re-analysis of the deposited data

Results flagged for a closer look

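Cathepsins Ctss and Ctsw, possible targets of stefins, differed between the injection routes by a test of the difference itself. They were the 2 of 8 tested genes of their list called lower, where 30.4% of all tested genes were called lower. The count is not above that share. In scivMSC against scMSC, Ctss was lower by a log2 difference of −2.01 (SE 0.422, adjusted p = 0.0095 by edgeR), with 6.20 ± 1.90 FPKM in scMSC and 1.52 ± 0.625 FPKM in scivMSC (SD, n = 3), and Ctsw by one of −1.81 (SE 0.404, adjusted p = 0.0108 by edgeR), with 1.73 ± 0.154 and 0.479 ± 0.108 FPKM. The median of all tested genes in this comparison was −0.87. Under TMM the differences were −1.09 (adjusted p = 0.006) for Ctss and −0.89 (adjusted p = 0.00861) for Ctsw by edgeR, of which the latter is under the 2-fold threshold. Monocyte markers (3 of 5) and T cell markers (8 of 8) were called lower in the same comparison under library totals, beside the 30.4% of all tested genes. Under TMM 0 of 8 T cell markers were called, and of the monocyte markers 1 was lower and 1 higher. TMM called 272 of the 5527 tested genes lower and 722 higher here. Leaving out single libraries of either MSC group gave 1 to 4 monocyte and 3 to 8 T cell markers called lower under library totals. Their part in these differences was not tested.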

How the results depend on the processing

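In DNCB against Solvent and in both MSC groups against DNCB, each fitted member kept its direction under the 22 alternatives, a description since these comparisons chose the members. Without any 1 DNCB library Stfa3 fell under the filter and 5 members were fitted, so part of the shift of those medians is a change of members: without replicate 2 the median was 6.26, −4.75 and −4.85, against 6.47, −4.96 and −5.05 for the same 5 with all libraries. In DNCB against Solvent the members' median log2 fold change became 5.18 with limma on log2(FPKM + 1), and 6.26 to 6.99 with single libraries left out. In scMSC against DNCB it was −4.39 with TMM, −4.68 with haemoglobin left out, −4.44 with DESeq2, −4.44 with limma and −5.24 to −4.68 with single libraries left out. In scivMSC against DNCB these were −3.64, −4.62, −3.67, −4.57 and −5.46 to −4.85.

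Counts of members called depended on the scaling and tool, and DESeq2 differs from the main fit in both. In scivMSC against scMSC TMM and DESeq2 each called 1 (Stfa2), and leaving out single libraries gave 0 to 1 (Stfa2l1 without scivMSC replicate 1). In scMSC against Solvent the count was 4 with TMM, 3 with haemoglobin left out, 1 with a mean FPKM of at least 5, 4 with DESeq2, 1 with limma, 3 with only the 2 groups fitted, and 0 to 4 with single libraries left out, 3 without scivMSC replicate 1 and 4 without scivMSC replicate 2. In scivMSC against Solvent it was 5 with TMM, 4 with DESeq2, 0 with limma, 1 with 2 groups and 2 to 3 with single libraries left out. The causes were not tested. Directions reversed in scivMSC against scMSC for Stfa2l1 with DESeq2 (0.018), Cstdc4 with TMM (0.12) and DESeq2 (0.12), and Cstdc5 with TMM (0.75), haemoglobin left out (0.074), DESeq2 (0.78) and single libraries left out (−0.50 to 0.30). Cstdc4 in scivMSC against Solvent ranged from −0.12 to 0.88 with single libraries left out. Leaving out a library leaves its group with 2.

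Replicate numbers are shared by the groups but did not pair the libraries, with correlations of −0.20 to 0.17 over 18 same-number pairs, 3 of them over 0.1. With the replicate number as a block, 0, 0 and 2 members were called in scivMSC against scMSC, scMSC against Solvent and scivMSC against Solvent, and the medians were 6.69, −5.23 and −5.22. Low counts limit Stfa1, Stfa3 and Cstdc6 outside DNCB.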
